A study of Homo sapiens with 16 samples.

Results

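The peroxiredoxins are a family of 6 human genes, PRDX1 to PRDX6, and were followed here in HepG2 cells, a line from a human liver tumour that keeps many hepatocyte functions. Every probe whose symbol in the platform's probe table is one of these names was taken, which gave 6 probes for 5 genes, of 15240 distinct gene symbols in the table. PRDX2 has 2 probes, PRDX3, PRDX4, PRDX5 and PRDX6 have 1 each, and no probe carries the symbol PRDX1, which was not analysed here. The probes were chosen by symbol alone, but the family itself was selected on earlier results from these same intensity values, so its differences between groups are given as a description and the p-values are not independent evidence.

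The study asked which transcripts mark exposure to elaidic acid, a trans fatty acid of dietary fat. Cells in medium without serum were left without added fatty acid (control) or received oleic acid, the cis isomer of elaidic acid, elaidic acid itself or stearic acid, the saturated acid of the same chain length. Each acid was given at 100 µM, RNA was taken after 7 days, and each of the 4 groups has 4 biological replicates with 2 technical replicates per RNA extraction. The 1-colour arrays carry 30968 probes, and each sample has 1 background-subtracted value per probe. HepG2 is a tumour line and 1 culture model, so the replicates are cultures of 1 line and not separate donors.

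Peroxiredoxins are thiol peroxidases: a reactive cysteine reduces hydrogen peroxide, organic hydroperoxides and peroxynitrite, and is then reduced again, in most members by thioredoxin. PRDX1 and PRDX2 work mainly in the cytosol, PRDX3 in mitochondria, PRDX4 in the endoplasmic reticulum, and PRDX5 in mitochondria, peroxisomes and cytosol. PRDX6 has a single active cysteine, draws on glutathione, and also has phospholipase activity towards oxidised phospholipids. Sulfiredoxin (SRXN1) rescues members whose cysteine has been overoxidised. The liver handles much lipid peroxide and hydrogen peroxide, and is rich in several of these enzymes.

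Each sample's label gives its array numbers, which form 2 ranges, here A and B. Range A (10 samples) holds every control and oleic acid sample and elaidic acid replicates 2 and 4, and range B (6 samples) holds elaidic acid replicates 1 and 3 and every stearic acid sample. What the ranges stand for is not given in the sources used here. Elaidic acid is the group that spans both ranges, while stearic acid shares no range with control or oleic acid. Median intensity ran from 19.95 to 76.1 per sample, and the small number of arrays per group sets the precision. All 9 hepatocyte markers with a probe stood above the noise limit in all samples. So did 5 of 10 markers of other cell types, namely COL1A1, COL1A2, DES, CD14 and CD79A. Vimentin (VIM), of mesenchymal cells and the dimmest of the 10, did so in 1 sample. The rest did so in more: PTPRC in 15 samples, VWF in 11, PECAM1 in 10 by its brighter probe (2 by the other) and CD3E in 9. In bulk RNA of this kind, fewer cells that express a gene and less of its RNA per cell cannot be told apart.

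The noise limit of a sample was taken as the size of its lowest value, which lies below 0, and ran from 11.0006 to 18.5 intensity units. A probe at or below it is called near background. Group values are means ± SD of quantile normalised log2 intensity (n = 4), and differences are on that log2 scale with the standard error of limma. The threshold for a call was an adjusted p of 0.05 (Benjamini-Hochberg) over the 22939 probes that were above 0 in every sample.

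RefSeq's table of gene starts (GRCh38.p14) matched PRDX2, PRDX3, PRDX4 and PRDX5. The 250 bases upstream of a start are shown for the 3 matched genes that passed the filter on low values, since every one of their tested probes was higher in array range B, as described below. They are written 5′ to 3′ on the gene's strand, with matches to GGGCGG (GC box) or CACGTG (E-box) on either strand in capitals. The PRDX2 window is chr19:12801801-12802050 on the minus strand, the PRDX4 window is chrX:23667243-23667492 on the plus strand, and the PRDX5 window, the first of 2 for that gene, is chr11:64317871-64318120 on the plus strand.
PRDX2: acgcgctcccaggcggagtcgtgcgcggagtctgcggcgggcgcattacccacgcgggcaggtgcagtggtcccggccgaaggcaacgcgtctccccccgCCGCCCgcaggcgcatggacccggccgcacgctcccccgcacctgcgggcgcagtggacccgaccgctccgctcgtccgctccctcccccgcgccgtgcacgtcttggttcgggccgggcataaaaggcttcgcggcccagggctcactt
PRDX4: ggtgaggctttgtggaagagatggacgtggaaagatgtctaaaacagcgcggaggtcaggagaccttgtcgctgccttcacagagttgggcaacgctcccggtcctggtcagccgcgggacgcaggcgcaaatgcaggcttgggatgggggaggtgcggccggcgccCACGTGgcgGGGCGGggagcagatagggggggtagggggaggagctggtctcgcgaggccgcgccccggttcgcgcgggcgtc
PRDX5: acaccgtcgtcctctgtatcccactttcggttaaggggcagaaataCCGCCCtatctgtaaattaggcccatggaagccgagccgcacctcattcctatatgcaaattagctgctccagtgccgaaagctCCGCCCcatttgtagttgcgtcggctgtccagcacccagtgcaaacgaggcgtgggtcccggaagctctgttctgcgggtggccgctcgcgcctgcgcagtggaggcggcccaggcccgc

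The PRDX2 window holds 1 GC box, 150 bases upstream of the start. The PRDX4 window holds 1 GC box at 74 bases and 1 E-box at 83 bases, and the PRDX5 window holds GC boxes at 204 and 120 bases. A GC box lies in 42.6% of the 35116 windows of this length in the table and an E-box in 6.34%. The core letters of the antioxidant response element, TGACNNNGC, lie in 10.9% of all windows and in none of the 5 windows of PRDX genes. The motifs searched do not overlap one another in these windows, and a match describes letters only.

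PRDX2, the abundant cytosolic member, was measured by probe PH_hs_0030160 well above the noise limit in all 16 samples. Its deposited intensity in control replicates 1 to 4 was 67.7, 145, 145 and 250.2. In oleic acid it was 164, 179.7, 185 and 91.005. In elaidic acid it was 761, 138, 659.8 and 240.5. Elaidic acid replicates 1 and 3 (range B) were thus above every control and oleic acid value, and replicates 2 and 4 (range A) were among them before normalisation. In stearic acid the values were 1295, 1006, 1710.3 and 2001, all above every other sample. The normalised log2 means were 7.24 ± 0.19 in control, 7.44 ± 0.23 in oleic acid, 8.45 ± 0.79 in elaidic acid and 10.003 ± 0.22 in stearic acid.

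The other PRDX2 probe, PH_hs_0035955, was dim. Its intensity in control was 1.52, 12.1, 7.40 and 23.9. In oleic acid it was 15.4, 16.3, 12.5 and 1.79. These values lie around the noise limit: 6 of the 10 range A samples were at or below it, against 0 of 6 in range B. In elaidic acid it was 114, 17.5, 95.7 and 19.0. In stearic acid it was 163, 141, 181 and 198. The order of the groups was that of the brighter PRDX2 probe, and the log2 means ran from 2.96 ± 1.13 in control and 3.39 ± 1.13 in oleic acid to 5.42 ± 1.07 in elaidic acid and 7.05 ± 0.18 in stearic acid. Log2 differences of this probe against control or oleic acid rest on values near background.

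PRDX4, the member of the endoplasmic reticulum that passes oxidising equivalents to protein disulfide isomerases, was dim in range A and bright in stearic acid. Its intensity in control was 20.9, 49.6, 53.6 and 85.1. In oleic acid it was 43.1, 39.9, 31.1 and 15.2, the last at or below the noise limit of its sample. In elaidic acid it was 122, 34.0, 157 and 32.0. Only the range B cultures of elaidic acid exceeded every control. In stearic acid it was 479, 295, 587 and 507, above every other sample. The log2 means were 5.63 ± 0.17, 5.18 ± 0.63, 6.15 ± 0.76 and 8.44 ± 0.37 in control, oleic, elaidic and stearic acid.

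PRDX3, the mitochondrial member, could not be measured by its single probe. Its intensity lay between -3.61 and 15.1 and was at or below the noise limit in 16 of 16 samples, and below 0 in control replicates 1 and 2. It was left out of the tests for that reason, so that the tests cover 5 probes of 4 genes.

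**Figure D1:**
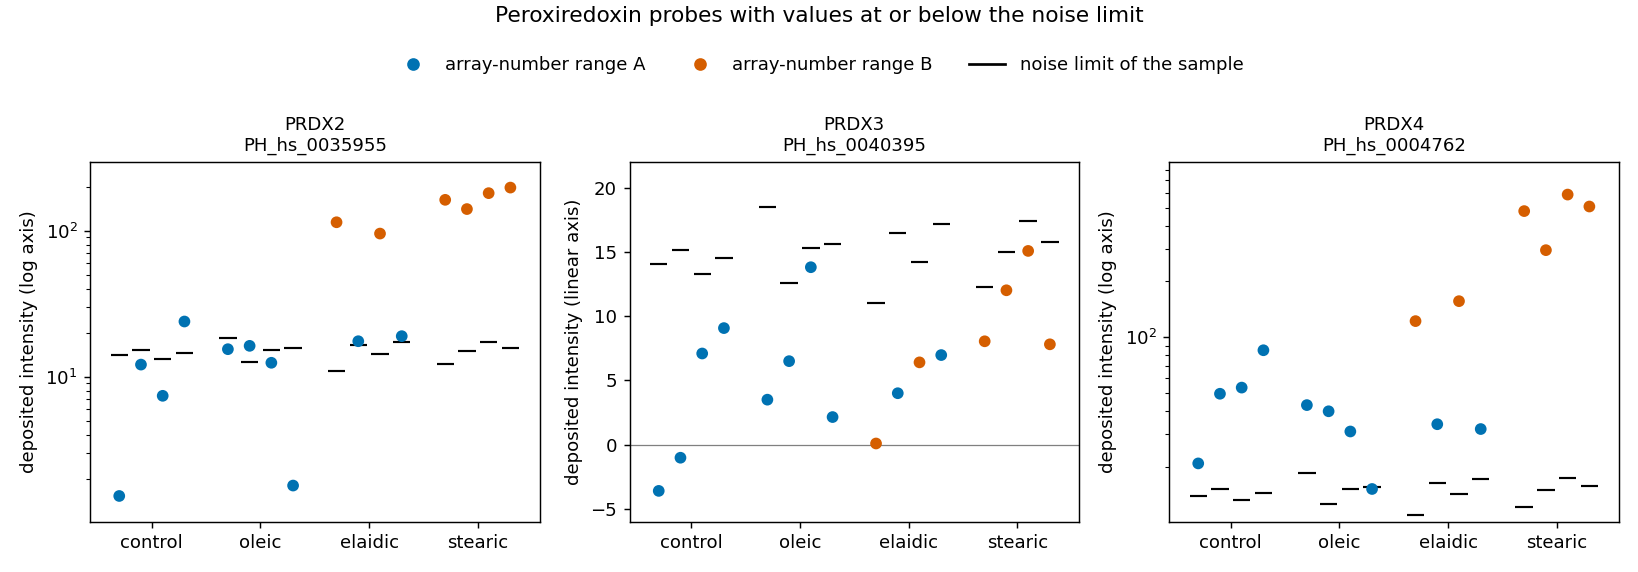
Deposited intensity of the 3 peroxiredoxin probes with any value at or below the noise limit, in each of the 16 samples (points, coloured by array-number range; log axis for PRDX2 and PRDX4, linear for PRDX3), with each sample's noise limit as a bar. The PRDX3 points never exceed their bars, while all 6 range B points of PRDX2 and PRDX4 lie above theirs.

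PRDX5, the member shared by mitochondria, peroxisomes and cytosol, was bright in every sample. Its intensity in control was 161, 945, 1023 and 1953. In oleic acid it was 1116, 1067, 1150.0 and 182. In elaidic acid it was 4669.8, 1500.2, 4474 and 1281. In control and oleic acid, control replicate 1 and oleic acid replicate 4 were several-fold below the rest. In stearic acid it was 6550.4, 4961, 6275 and 9653, above every other sample. The log2 means were 9.72 ± 1.04, 9.77 ± 1.05, 11.28 ± 0.57 and 12.17 ± 0.21 in control, oleic, elaidic and stearic acid.

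PRDX6, the glutathione-dependent member, differed from the others in elaidic acid. Its intensity in control was 176, 844, 1132 and 2670.0. In oleic acid it was 1012, 1232, 809 and 192. In elaidic acid it was 7255, 924, 6066 and 947. Replicates 1 and 3 of elaidic acid were here at the level of stearic acid, where the values were 5105, 4053, 4692 and 7919. The log2 means were 9.87 ± 1.10, 9.67 ± 0.97, 11.26 ± 1.21 and 11.83 ± 0.24. PRDX6 is the one tested probe whose elaidic and stearic acid ranges overlapped.

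**Figure D2:**
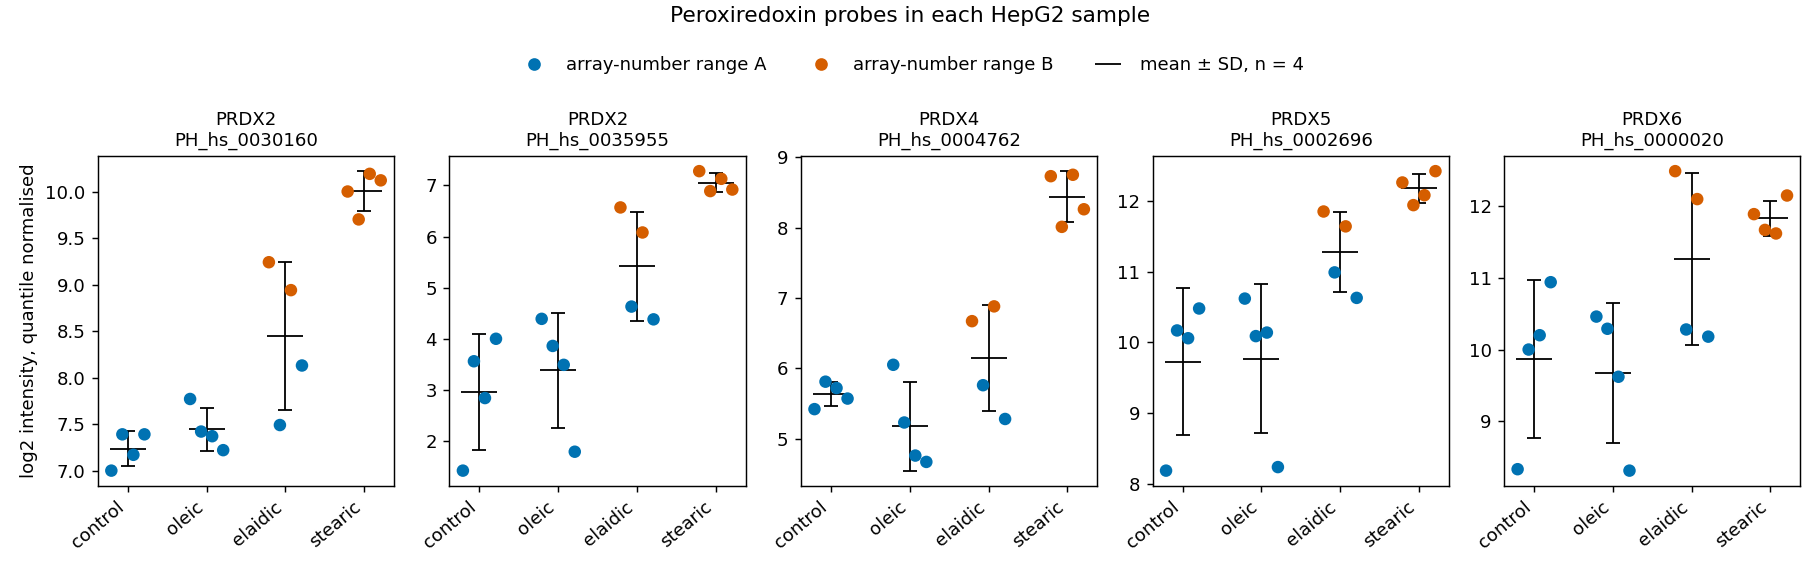
Quantile normalised log2 intensity of the 5 tested peroxiredoxin probes in each sample (points, coloured by array-number range) with the group mean ± SD (black, n = 4). In each panel the 6 range B points lie above the 10 range A points, and the elaidic acid points split between the 2 ranges.

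Control replicate 1 and oleic acid replicate 4 are also the dimmest samples, with median intensities of 19.95 and 20.7. Over the 10 samples of range A, PRDX6 followed the sample median (Pearson r = 0.67, permutation p = 0.0352, Benjamini-Hochberg adjusted 0.176 over 5 probes; Spearman rho = 0.47, permutation p = 0.177, adjusted 0.784). Without the 2 samples farthest from the median, control replicates 1 and 4, r for PRDX6 was 0.37, so its value of 0.67 rests on those samples. For the other 4 probes r lay between -0.03 and 0.51, with permutation p-values from 0.138 to 0.937 (adjusted 0.345 to 0.937) and rho between -0.10 and 0.19. Without the 2 dimmest samples r was 0.25 for PRDX6, -0.46 for PRDX5, -0.50 for PRDX4, and -0.41 and -0.39 for the PRDX2 probes. The part of sample brightness in the differences of PRDX5 and PRDX6 was not tested.

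Each of the 5 probes had every range B value above every range A value. Of all probes tested, 12.1% did so. For PRDX6 the highest intensity in range A was 2670.0 and the lowest in range B was 4053, and for PRDX4 these were 85.1 and 122. The 4 elaidic acid cultures show the same split within 1 treatment. The mean intensity of replicates 1 and 3 was 7.12 times that of replicates 2 and 4 for PRDX6 and 4.22 times for PRDX4. It was 3.75 times for PRDX2 (PH_hs_0030160), 5.76 times for PRDX2 (PH_hs_0035955) and 3.29 times for PRDX5. All 5 probes were higher without overlap there, as were 30.4% of all probes, and with 2 samples against 2 an exact permutation p cannot go below 0.333.

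A range term (B minus A) was also fitted beside the fatty acids in limma. Only elaidic acid spans both ranges, so this term equals the log2 difference between its 2 range B and 2 range A cultures. It is therefore not a result separate from the split described above. Its standard error draws on the spread of all samples, whereas the exact permutation p for these cultures cannot go below 0.333. The range term was 1.28 ± 0.30 for PRDX2 (PH_hs_0030160), with an adjusted p of 0.0344 in limma. It was 2.07 ± 0.72 for PRDX6 (adjusted p = 0.0987 in limma), 1.26 ± 0.41 for PRDX4 (0.0872), 1.81 ± 0.77 for the other PRDX2 probe (0.151) and 0.93 ± 0.72 for PRDX5 (0.388). Thus 1 of the 5 probes was called higher for the range, beside 2.36% of all probes. Because the ranges and the groups are tied, each PRDX comparison is given below without and with the range as a block.

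Stearic acid gave the largest differences from control. In limma without the block, all 5 probes were called higher, beside 15% of all probes, and all 5 groups of stearic acid values lay above the control values without overlap, beside 18.7%. PRDX4 was higher by 2.81 ± 0.37, which is 7.00-fold (adjusted p = 0.00070), and PRDX2 (PH_hs_0030160) by 2.77 ± 0.31, or 6.80-fold (adjusted p = 0.000598). PRDX5 was higher by 2.45 ± 0.52 (5.46-fold, adjusted p = 0.00515) and PRDX6 by 1.96 ± 0.62 (3.90-fold, adjusted p = 0.0288). The dim PRDX2 probe differed by 4.10 ± 0.62 (adjusted p = 0.00104 in limma), but 3 of its 4 control values lie at or below the noise limit. With 50 added to each intensity its difference was 1.64 ± 0.19 (adjusted p = 0.000103 in limma). The median over the 4 genes was 2.61, against -0.18 over all probes. The PRDX6 call was lost in limma without control replicate 1 (1.45, adjusted p = 0.104), and without stearic acid replicate 1 (1.94, 0.0659), 3 (2.03, 0.0533) or 4 (1.86, 0.0678).

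With the array range as a block, 0 of the 5 probes were called in stearic acid against control, beside 0% of all probes, and 3 of 5 had an unadjusted p under 0.05, beside 7.45% of all probes. PRDX4 was then 1.55 ± 0.50 higher (limma, adjusted p = 0.449), PRDX2 (PH_hs_0030160) 1.49 ± 0.37 (0.325) and the other PRDX2 probe 2.28 ± 0.94 (0.577). PRDX5 was 1.52 ± 0.88 higher (0.785) and PRDX6 was -0.11 ± 0.88 (1.00), with a 95% interval from -1.98 to 1.77. These values run through the elaidic acid samples, since no control lies in range B, so stearic acid and array range cannot be told apart by a direct comparison. Deposited intensities, which are not normalised, summed over the hepatocyte markers to 18905 to 92933 units in control, 72160 to 203363 in elaidic acid and 149855 to 214030 in stearic acid. The normalised median of these 9 markers in stearic acid against control was 1.09, and 0.33 with the block. Markers of other cell types summed to 1478 to 3019.9 in control and 1827 to 2593 in stearic acid. Their normalised median over 9 tested was -0.49, and 0.07 with the block. Without the block 2 of these 9 were called lower in limma, beside 14.8% of all probes. Of the 9 hepatocyte markers 6 were called higher without it, beside 15%. With the block 0 of either list were called, beside 0%. The part of either in the PRDX differences was not tested.

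Oleic acid left the family near the control. In limma 0 of the 5 probes were called, beside 0% of all probes, and 0 of 5 had an unadjusted p under 0.05, beside 2.62%. All 5 overlapped with control, and control and oleic acid, the 2 lowest groups of every probe, differed by less than the larger of their SDs. The differences were 0.21 for PRDX2 (PH_hs_0030160, 95% interval -0.46 to 0.88), -0.45 for PRDX4 (-1.23 to 0.33), 0.05 for PRDX5 (-1.06 to 1.16) and -0.20 for PRDX6 (-1.51 to 1.12). The intervals of PRDX5 and PRDX6 still allow differences of about 1 log2 unit either way. The range block leaves these estimates as they are, since both groups lie in range A, and 0% of all probes were called with it.

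Elaidic acid lay above control in all 5 estimates and passed the test in none. Beside 0.323% of all probes, 0 of the 5 PRDX probes were called in limma, and 4 of 5 had an unadjusted p under 0.05, beside 14.3% of all probes. The differences were 1.21 ± 0.31 for PRDX2 (PH_hs_0030160, adjusted p = 0.121 in limma), 2.46 ± 0.62 for the other PRDX2 probe (0.113), 0.52 ± 0.37 for PRDX4 (0.497), 1.55 ± 0.52 for PRDX5 (0.216) and 1.40 ± 0.62 for PRDX6 (0.326). Both PRDX2 probes and PRDX5 were higher than control without overlap, 3 of 5 beside 3.82% of all probes. Without elaidic acid replicate 2, PRDX2 (PH_hs_0030160) was called at 1.53 (limma, adjusted p = 0.0297). Other omissions moved values by more than 1.5 times: PRDX6 was 0.88 without control replicate 1, and PRDX4 was 0.28 when elaidic acid replicate 3 was left out and 0.81 when replicate 4 of that acid was, none of them called.

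Within range A the 2 elaidic acid cultures can be set against the 4 controls. On the normalised scale both PRDX2 probes and PRDX5 were again higher without overlap, 3 of 5 beside 7.17% of all probes. On the deposited intensities all 3 overlapped, since control replicate 4, the brightest sample of range A, was above both elaidic acid cultures. The log2 differences were 0.57 for PRDX2 (PH_hs_0030160, exact permutation p = 0.0667, two-sided), 1.55 for the other PRDX2 probe (exact p = 0.133) and 1.08 for PRDX5 (exact p = 0.267). The other PRDX2 probe is dim here: its elaidic acid intensities of 17.5 and 19.0 lie just above noise limits of 16.5 and 17.2. With 50 added to each intensity beside the block, an alternative chosen after seeing the data, its difference was 0.32. PRDX2 enters the 3 of 5 with both its probes. The smallest p that 2 against 4 samples can give is 0.0667, and the lowest value adjusted over the 20 such tests was 0.333. PRDX4 (-0.11) and PRDX6 (0.36) overlapped with control. In the limma fit with the block, where these same differences stand, 0 of 5 were called, beside 0.0392% of all probes, and 2 of 5 had an unadjusted p under 0.05, beside 6.53%. Without the 2 dimmest samples the PRDX5 difference with the block was 0.58.

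Against its cis isomer, elaidic acid was higher in all 5 estimates, by 1.00 ± 0.31 (PRDX2, PH_hs_0030160), 2.03 ± 0.62 (PRDX2, PH_hs_0035955), 0.97 ± 0.37 (PRDX4), 1.5 ± 0.52 (PRDX5) and 1.59 ± 0.62 (PRDX6). In limma 0 of 5 were called (adjusted p from 0.163 to 0.213), beside 0.318% of all probes, and 5 of 5 had an unadjusted p under 0.05, beside 18.9%. PRDX5 alone was higher without overlap, 1 of 5 beside 4.07%. Without elaidic acid replicate 2, PRDX2 (PH_hs_0030160) was called at 1.32 (limma, adjusted p = 0.0461), and without oleic acid replicate 4 the PRDX5 difference was 0.99. Within range A, PRDX5 was again the 1 of 5 without overlap, beside 6.29%, with a difference of 1.04 (exact permutation p = 0.20). With the block 0 of 5 were called, beside 0.0218% of all probes, the estimates lay between 0.34 and 1.12, and 0 of 5 had an unadjusted p under 0.05, beside 5.85%. Only elaidic acid replicates 2 and 4 share an array range with oleic acid, so the values without the block also compare ranges.

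Elaidic acid was below stearic acid for PRDX4 by -2.29 ± 0.37 (limma, adjusted p = 0.0377) and for PRDX2 (PH_hs_0030160) by -1.55 ± 0.31 (adjusted p = 0.0468). These 2 of 5 probes were called lower, beside 0.31% of all probes. The other PRDX2 probe (-1.64, adjusted p = 0.252 in limma), PRDX5 (-0.90, 0.409) and PRDX6 (-0.57, 0.629) were not called. Both calls sit close to the threshold. Leaving out 1 sample at a time, PRDX4 kept its call in 6 of 16 fits, those without control replicate 1, 2 or 4, oleic acid replicate 1 or 4, or elaidic acid replicate 1, with estimates from -2.53 to -2.0 over all 16. PRDX2 kept its call in 4 of 16, those without control replicate 1, oleic acid replicate 1 or 4, or elaidic acid replicate 1, with estimates from -1.81 to -1.24.

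Range B allows the same comparison within 1 array range, with 4 stearic against 2 elaidic acid cultures. PRDX4 was 1.66 log2 units higher in stearic acid (3.16-fold, exact permutation p = 0.0667), PRDX2 (PH_hs_0030160) 0.91 higher (exact p = 0.0667) and the other PRDX2 probe 0.73 higher (exact p = 0.0667), the smallest p this design allows. PRDX5 was 0.43 higher (exact p = 0.133). These 4 of 5 probes did not overlap between the acids, beside 12.3% of all probes. PRDX6 differed by -0.47 and overlapped (exact p = 0.20). In the blocked limma fit 0 of 5 were called, beside 0.00436% of all probes, and 2 of 5 had an unadjusted p under 0.05, beside 5.82%. The interval of PRDX4, elaidic minus stearic acid, ran from -2.42 to -0.90 (adjusted p = 0.333), and that of PRDX6 from -0.86 to 1.79. With 50 added to each intensity beside the block, an alternative chosen after seeing the data, PRDX4 was called at -1.31 ± 0.20 (limma, adjusted p = 0.0279), beside 0.149% of all probes.

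Oleic acid lay below stearic acid for 5 of 5 probes called in limma, beside 18.4% of all probes, from -2.16 ± 0.62 for PRDX6 (adjusted p = 0.0162) to -3.67 ± 0.62 for the dim PRDX2 probe (0.00162), with PRDX4 at -3.26 ± 0.37 (0.000584). The PRDX6 call was lost without oleic acid replicate 4 (-1.70, limma adjusted p = 0.060). With the block 0 of 5 were called, beside 0% of all probes, PRDX4 was -2.0 ± 0.50 and PRDX6 -0.09 ± 0.88, and 2 of 5 had an unadjusted p under 0.05, beside 6.6% of all probes. The comparisons that involve stearic acid share its 4 samples, so their values are not independent of one another.

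**Figure D3:**
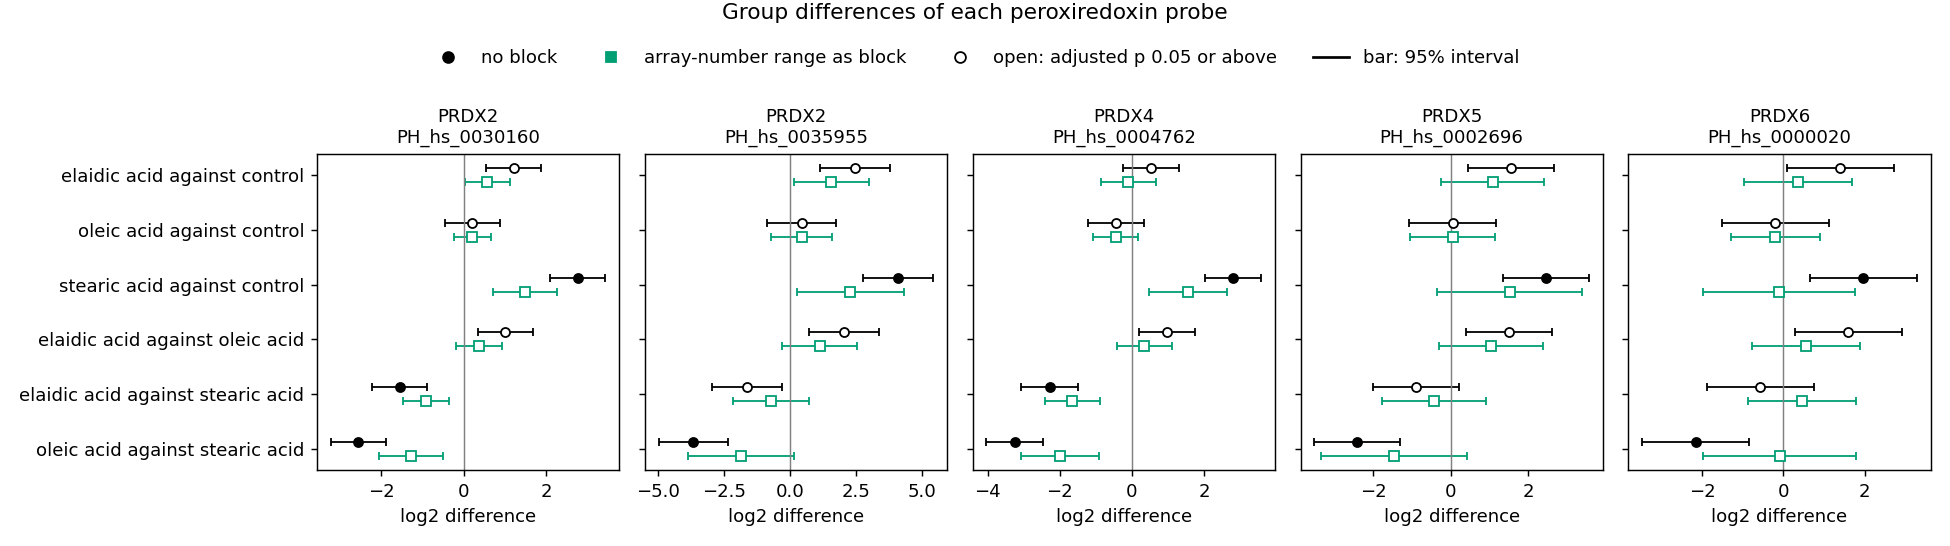
Log2 difference of each tested peroxiredoxin probe in the 6 group comparisons, from limma without a block (black circles) and with the array-number range as a block (green squares), with 95% intervals; filled symbols have an adjusted p under 0.05. Filled circles stand in the comparisons with stearic acid, and no square is filled.

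How the members varied together differed between the ranges. Over the 10 range A samples the PRDX2 probes correlated with each other at r = 0.76, and over the 6 range B samples at r = 0.92. PRDX2 (PH_hs_0030160) and PRDX4 stood at r = 0.19 in range A and 0.93 in range B. PRDX5 and PRDX6 stood at r = 0.92 in range A, but at 0.37 without the 2 dimmest samples, and at -0.18 in range B. PRDX4 and PRDX6 stood at 0.57 in range A and -0.74 in range B. These are descriptions without a test, since the points share samples, sample brightness and, in range B, the difference between stearic and elaidic acid.

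Among 13448 probes with a symbol, those most like each gene over range A were CHMP4B (r = 0.93) and CDK4 (0.91) for PRDX2, and PSMD4 (0.95) and MICAL3 (0.95) for PRDX4. For PRDX5 they were F10 and EXOSC6 (0.99 each), and for PRDX6 MRPL14 and FN1 (0.98 each). Over range B the PRDX2 pair stood at 0.82 and 0.91, the PRDX4 pair at -0.18 and 0.06, the PRDX5 pair at -0.48 and -0.06, and the PRDX6 pair at 0.30 and 0.85. The likeness of the PRDX4 and PRDX5 pairs thus did not hold over range B. These probes were picked for their range A values, so those are high by choice, and no test was made. Without the 2 dimmest samples the range A values ran from 0.85 (FN1) to 0.97 (EXOSC6). Range B holds stearic and elaidic acid cultures, so the difference between these acids also enters its values.

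The thioredoxin system returns oxidised peroxiredoxins to their active form. Of 6 genes tested, 5 were called higher in stearic acid against control, beside 15% of all probes, with a median of 1.51, among them NXN (1.6 ± 0.29, adjusted p = 0.00222 in limma), TXNRD2, the mitochondrial thioredoxin reductase (1.41 ± 0.26, 0.00270), and TXNL1 (1.93 ± 0.48, 0.0103). With the range block 0 of 6 were called, beside 0% of all probes, and the median was 0.39. NXN then stood at 1.21 ± 0.49, TXNRD2 at 0.84 ± 0.42 and TXNL1 at 0.13 ± 0.62. In elaidic acid against control 6 of 6 estimates were higher and 0 were called, with a median of 0.61, or 0.09 with the block. Sulfiredoxin, which repairs overoxidised peroxiredoxin, and the sestrins were listed together, with 3 genes tested. Of these, sulfiredoxin SRXN1 (2.85 ± 0.64, limma adjusted p = 0.0068) and sestrin SESN2 (1.38 ± 0.36, 0.0135) were called higher in stearic acid, again beside 15% of all probes. SESN1 was not (1.13 ± 0.61, 0.159). With the block 0 were called, again beside 0% of all probes. SRXN1 then stood at -0.06 ± 0.66, SESN2 at 0.51 ± 0.58 and SESN1 at -0.55 ± 0.95.

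Other peroxide-removing enzymes moved in part. Of 6 genes tested among the glutathione peroxidases and catalase, 3 were called higher in stearic acid, beside 15% of all probes: GPX2 (2.5 ± 0.29, limma adjusted p = 0.000654), GPX4, which reduces lipid hydroperoxides in membranes (2.16 ± 0.33, 0.00112), and GPX7, of the endoplasmic reticulum (2.46 ± 0.51, 0.00473). The median of this list was 1.28, and 0.86 with the block, where 0 were called, beside 0% of all probes. With the block GPX2 stood at 1.82 ± 0.46, GPX4 at 1.59 ± 0.56 and GPX7 at 1.29 ± 0.83. The next list holds the superoxide dismutases SOD1, SOD2 and SOD3 and the copper chaperone of SOD1, CCS. Of these 4 genes the mitochondrial SOD2 was called higher, 1 of 4 beside 15% of all probes (2.28 ± 0.40, limma adjusted p = 0.00194). SOD1 (0.73 ± 0.27, 0.051), SOD3 (-0.27 ± 0.26, 0.437) and CCS were not called. Of 5 glutaredoxins and glutathione partners, GLRX5 (1.84 ± 0.36, 0.0032) and glutathione reductase GSR (1.67 ± 0.35, 0.00473) were called higher, 2 of 5 beside 15%, and GLRX (-1.11 ± 0.31, 0.0172) lower, where 14.8% of all probes were called lower. The medians of these last lists were 0.43 and -0.42, and with the block 0.25 and 0.86, with 0 called, beside 0% of all probes. SOD2 was then 0.65 ± 0.47 higher (limma, adjusted p = 0.883), SOD1 0.43 ± 0.45, GLRX5 0.95 ± 0.56 and GSR 0.86 ± 0.56, while SOD3 stood at -0.20 ± 0.45 and GLRX at -0.81 ± 0.53.

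PRDX4's neighbours in oxidative protein folding gave 4 of 7 tested genes called higher in stearic acid, beside 15% of all probes, with a median of 0.79 and of 0.17 with the block. They included GPX7 again, PDIA4 (2.64 ± 0.74, limma adjusted p = 0.0177) and PDIA3 (0.65 ± 0.21, 0.0311). With the block PDIA4 stood at 0.15 ± 1.05 and PDIA3 at 0.68 ± 0.35, and 0 were called, beside 0% of all probes. Common reference genes moved as well: of 7 tested, 4 were called higher (15% of all probes) and 1 lower (14.8%) in stearic acid, with a median of 1.40 and of -0.03 with the block. Among them HPRT1 was 2.97 ± 0.75 higher (0.0111), B2M 2.49 ± 0.49 (0.00342) and YWHAZ 1.40 ± 0.27 (0.00325). With the block these were 0.45 ± 1.06, 1.07 ± 0.74 and 0.78 ± 0.43, and 0 were called, again beside 0%. The 4 PRDX genes, with a median of 2.61 and of 1.5 with the block, can be read beside these values, and no difference between the lists was tested. In elaidic acid against control no gene of these 7 lists was called, beside 0.323% of all probes, and the list medians lay between -0.21 and 1.02, or between -0.25 and 0.55 with the block.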

How the data were processed

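The deposited table holds 1 background-subtracted intensity on a linear scale per probe and sample, as the values show. How the authors combined the technical replicates, subtracted background or scaled is not given in the sources used here. Gene symbols came from the platform's probe table, which pairs 17397 probes with 1 symbol and 13571 with none.

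The 8029 probes (25.9%) that were not above 0 in every sample were dropped. The log2 values of the rest were quantile normalised and fitted by lmFit and eBayes of limma 3.58.1 (R 4.3.3), with all 16 samples in 1 model and two-sided tests. The fit was also run on simulated data with independent noise and no difference between array ranges. That run cannot show how the tie between range and group affects the results. A gene with 2 probes is represented by the brighter in medians. The labels' replicate numbers were not treated as pairs. Deviations from group means correlated above 0.1 in 7 of 24 same-number pairs (range -0.462 to 0.364). For other-number pairs this was 23 of 72 (-0.429 to 0.47). The group means ignore the array range, so this check cannot show that the cultures were unpaired. Exact permutation tests used scipy 1.17.1. Up to 3 genes of smallest p were named per list, and the 2 likest probes per gene over range A. The members, gene lists and tests were chosen with earlier results of these data known. Alternatives covered normalisation, offsets, dim probes, an intensity trend, blocks and leaving out samples. Those with an offset together with the block, without the 2 dimmest samples, and leaving out samples under the block were chosen after seeing the data.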

Additional observations from a re-analysis of the deposited data

How the results depend on the processing

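Without the array-range block, leaving out 1 sample at a time gave these ranges. PRDX probes called numbered 0 to 1 in elaidic acid against control, 0 in oleic acid against control, 4 to 5 in stearic acid against control, 0 to 1 in elaidic against oleic acid, 0 to 2 in elaidic against stearic acid and 4 to 5 in oleic against stearic acid. The medians, in that order, were 0.96 to 1.59, -0.5 to 0.27, 2.32 to 2.76, 0.96 to 1.53, -1.45 to -1.02 and -2.68 to -2.19. With the block, PRDX probes called numbered 0 throughout. Calls over all probes were then 1 to 100, 0, 0 to 32, 0 to 96, 1 to 20 and 0 to 29. PRDX medians were 0.17 to 0.67, -0.5 to 0.27, 1.21 to 1.59, 0.23 to 0.73, -0.8 to -0.54 and -1.57 to -1.08. Over both kinds of fit, single estimates that changed sign in some of them ran from -0.35 to 0.81 (PRDX4, elaidic acid against control), -0.15 to 1.76 (PRDX6, same), -0.08 to 0.96 (dim PRDX2 probe, oleic acid against control), -0.47 to 0.56 (PRDX5, same) and -0.71 to 0.26 (PRDX6, same). For PRDX6 they ran from -0.62 to 2.33 in stearic acid against control, -0.98 to 0.66 in elaidic against stearic acid and -2.43 to 0.36 in oleic against stearic acid.

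With the range as a block, with the block and an offset of 50, and with the block without the 2 dimmest samples, PRDX medians were 0.47, 0.39 and 0.17 (elaidic acid against control), 1.5, 1.28 and 1.21 (stearic acid against control), 0.46, 0.4 and 0.24 (elaidic against oleic acid) and -1.37, -1.27 and -1.08 (oleic against stearic acid). The called number fell to 0 under each in the comparisons with stearic acid, except 1 with the offset in elaidic against stearic acid. Reversed single values under these 3 were PRDX4 in elaidic acid against control (-0.11, -0.05, -0.18) and PRDX6 in stearic acid against control (-0.11, -0.14, -0.62), in elaidic against stearic acid (0.47, 0.46, 0.47), and, without the dimmest samples, in elaidic acid against control (-0.15) and oleic against stearic acid (0.36). Without normalisation the medians with stearic acid were 3.22 (against control) and -3.26 (oleic against stearic acid), PRDX5 in oleic acid against control was -0.07, and 0 were called in elaidic against stearic acid. Fitting only those 2 groups also gave 0 there. The filter on the dimmest 50% of probes retains 3 PRDX probes. Of these, 3, 3 and 1 were called in stearic acid against control, oleic against stearic acid and elaidic against stearic acid. Without this filter 15% of all probes were called higher, 18.4% lower and 0.31% lower there. The shares with the filter are not given here, so these counts are not set against all probes. With replicate number as a block, calls in elaidic against stearic acid went from 2 to 0, and PRDX6 in stearic acid against control had an adjusted p of 0.0519 in limma. The numbers are not treated as pairs, though the check of pairs could not show that the cultures were unpaired. Without the 2 dimmest samples and without a block, PRDX6 in stearic acid against control was 1.45 (adjusted p = 0.0633). The cause of these changes was not tested.

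Among all probes, those called in elaidic acid against control numbered 74, but 9 with the range block, 28 with the replicate block, 0 without normalisation or with only those groups, 218 with the offset, 189 without the dimmest 50%, 154 with an intensity trend, 41 without the dimmest samples and 14 without them with the block. In stearic acid against control they numbered 6825, but 0 with the block, 28 with block and offset, 3099 without normalisation, 4459 without the dimmest samples and 0 with the block as well. In elaidic against oleic acid the 73 became 5 (block), 4 (replicate block), 2 (no normalisation), 216 (offset), 23 (offset and block), 180 (without the dimmest 50%), 0 (only those groups), 126 (trend), 24 and 14 (without the dimmest samples, without and with the block). In elaidic against stearic acid the 91 became 1, 0, 0 and 582 under the first 4 of these, then 294 without the dimmest 50%, 0 with only those groups, 223 with the trend, 304 and 1 without the dimmest samples. In oleic against stearic acid the 9057 became 0 with the block, 5125 without normalisation, 4 with offset and block and 0 without the dimmest samples with the block. Leaving out single samples without the block gave 25 to 115, 0, 3571 to 8213, 3 to 191, 0 to 162 and 4766 to 9920. Signal near background limits PRDX3 and the dim PRDX2 probe.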
